A study of Mus musculus with 6 samples.

Results

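The cells described here are hypothalamic nuclei of mice that hold messenger RNA of Pmch, the gene for the precursor of melanin-concentrating hormone. A nucleus was taken when it had 5 or more Pmch unique molecular identifiers (UMIs, each standing for 1 captured RNA molecule), when these made up 0.1% or more of its gene UMIs, and when it had fewer Hcrt than Pmch UMIs. Hcrt encodes the orexin precursor. The rule found 116 of 34542 deposited barcodes, 52 of 11405 in the DIO pool, 18 of 12284 in the OB pool and 46 of 10853 in the chow pool. The nuclei were thus chosen by their Pmch and Hcrt counts, and both genes are described here and not tested.

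The study sorted NeuN-positive, that is mainly neuronal, nuclei from the hypothalamus and profiled them in 3 pools. The DIO pool came from mice made obese by diet, labelled high-fat diet. The OB pool came from ob/ob mice on chow, which carry a mutation of the leptin gene, and the chow pool from mice on chow with no mutation named. Within each pool, mice given rapamycin, an inhibitor of the mTORC1 kinase complex, and mice given vehicle were marked with 1 hashtag each. That makes 6 hashtag samples. The labels give no strain, age, sex, dose, duration or number of animals per hashtag, so p-values measure only the spread between these hashtag samples, which may be technical. The 2 hashtags of a pool shared 1 library, and each mouse group was 1 pool. Differences between mouse groups therefore cannot be told apart from differences between libraries or, for OB, between software versions.

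Melanin-concentrating hormone neurons lie in the lateral hypothalamus and the zona incerta next to it. Their peptide acts through the receptor Mchr1, promotes feeding and weight gain, and takes part in rapid eye movement sleep. These neurons are known for an unusual transmitter profile. They release glutamate, carry the GABA-synthesising enzyme Gad1, and largely lack the vesicular GABA transporter Slc32a1. A known division of them is marked by the peptide gene Cartpt and the neurokinin receptor gene Tacr3.

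All comparisons between rapamycin and vehicle rest on 2 hashtag oligonucleotides, shown because they alone carry the treatment label of a nucleus. They are given 5′ to 3′ as in the deposited key, which uses the same pair in all 3 pools. Capitals mark the 12 of 15 positions at which the tags differ.
Hashtag 1, rapamycin: TTCCTGcCATtACtA
Hashtag 2, vehicle: CCGTACcTCAtTGtT

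Among the 116 Pmch nuclei, 46 were called rapamycin, 56 vehicle, 11 doublets of both tags and 3 negative. Per pool the numbers for rapamycin and vehicle were 23 and 24 in DIO, 8 and 8 in OB, and 15 and 24 in chow. Doublets and negatives were left out of the sums per hashtag sample, except where nuclei were assigned by the ratio of their tags. They stay in the counts, pooled levels and detection shares given for all 116 members and for the nuclei set beside them. The pools held 71127440 UMIs (DIO), 39238102 (OB) and 68992028 (chow). A Pmch nucleus had a median of 7904.5 UMIs in DIO, 4325.5 in OB and 9731 in chow, so the OB values are the least precise. Between 31 and 38 barcode sequences recurred between any 2 pools.

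Pmch UMIs per member ranged over 6–49 in DIO (median 13), 5–27 in OB (median 9.5) and 7–47 in chow (median 17.5). In the members' own UMIs Pmch made up 0.101–0.417% in DIO, 0.129–1.05% in OB and 0.103–0.762% in chow. The members carried 829 of the 1580 Pmch UMIs of the DIO pool, 203 of 781 in OB and 931 of 1498 in chow. The remainder lay mostly as single UMIs in other nuclei. At least 1 Pmch UMI was found in 4.25%, 4.42% and 4.09% of the other neurons of DIO, OB and chow (median 5766.5, 3277 and 5964 UMIs a nucleus). In non-neuronal nuclei, which should lack the gene, the shares were 4.16%, 3.60% and 2.94% at median depths of only 1965, 1386 and 2041 UMIs. Single Pmch UMIs outside the set are thus at the level of background RNA.

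Nuclei just inside the rule had 14 Pmch UMIs of 13875 (0.101%) and 6 of 5861 (0.102%) in DIO. Those just outside had 5 of 5037 (0.099%) and 9 of 9568 (0.094%). A further 45 nuclei had 5 or more Pmch UMIs but fell under the percentage, with a median of 11785 UMIs. Of these, 8 were called rapamycin, 25 vehicle and 12 doublets. Pooled over nuclei, members held 424 CPM (a gene's UMIs per 1000000 gene UMIs) of Cartpt, 243 CPM of Tacr3, 147 CPM of Gad1 and 138 CPM of Nucb2. The 45 deeper nuclei under the percentage held 228, 166, 148 and 126 CPM of the same 4 genes. The percentage thus left out deep nuclei, 25 of the 45 from vehicle hashtags, that carried these 4 genes too. Their Cartpt and Tacr3 levels were below those of members.

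**Figure D1:**
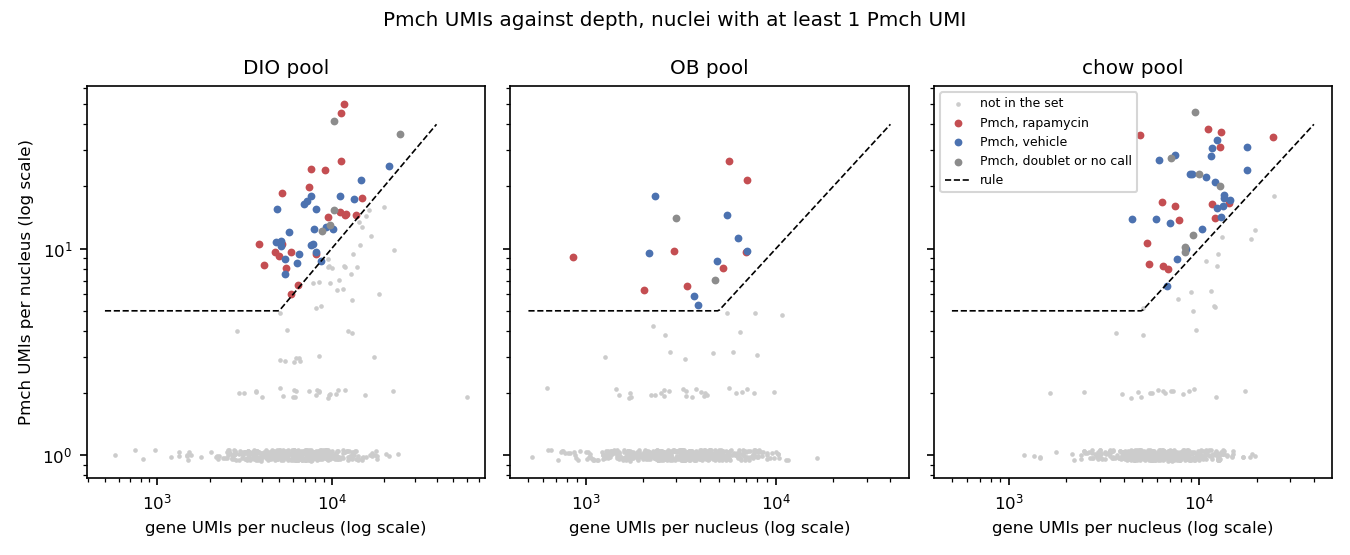
Pmch UMIs per nucleus (vertical, log scale) against all gene UMIs of the nucleus (horizontal, log scale) for nuclei with at least 1 Pmch UMI, 1 panel a pool, with small vertical offsets to separate points. The dashed line is the rule; the 116 members lie on or above it, and most other nuclei sit at 1 Pmch UMI.

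The label was checked against genes that the rule did not use. Of the 116 members, 115 had more UMIs over 6 general neuronal markers than over 33 glial, vascular and pituitary markers. To compare shares across depths, each nucleus was thinned to 1500 UMIs, which left 115 of 116 members, 29794 of 30283 other neurons and 2152 of 4142 non-neuronal nuclei. Cartpt was then detected in 26.1% of Pmch nuclei, 1.77% of other neurons and 0.511% of non-neuronal nuclei. Tacr3 was detected in 23.5% of Pmch nuclei, 1.21% of other neurons and 0.139% of non-neuronal nuclei. Both genes accompany Pmch well above background RNA.

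Gad1 was detected in 20.9% of thinned Pmch nuclei, against 7.89% of other neurons and 2.14% of non-neuronal nuclei. Nucb2, the precursor gene of nesfatin, was detected in 17.4% of Pmch nuclei, against 5.06% of other neurons and 3.25% of non-neuronal nuclei. Without thinning, the shares in Pmch nuclei and in other neurons were 58 of 116 nuclei and 4.75% for Cartpt, 56.0% and 3.32% for Tacr3, 64.7% and 20.5% for Gad1, and 58.6% and 16.9% for Nucb2. Slc17a6, the vesicular glutamate transporter, was found in 6.96% of thinned Pmch nuclei and 10.3% of other neurons, and in 31.0% and 28.1% of them without thinning. Slc32a1 had no UMI in any of the 116 members. After thinning that is 0 of 115, with an exact 95% upper limit of 3.16%, beside 1.55% of other neurons.

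Gene levels of Pmch nuclei were compared with those of all other neurons of the same hashtag sample, in 6 pairs of summed counts. Among the genes higher in Pmch nuclei were the homeobox factor Otx1, the growth factor Igf1, the peptide gene Cartpt, its companion Tacr3, and the mTOR inhibitor Deptor. Pmch nuclei had more of the prohormone convertase Pcsk2 and less of Pcsk1 and of secretogranin Scg2. They had more Gad1 but far less Gad2. Most receptors and lineage factors that differed were lower. By edgeR's quasi-likelihood test with Benjamini-Hochberg adjustment at 0.05, 1724 of 12664 genes differed (13.6%). Of these, 651 were higher in Pmch nuclei (5.14%) and 1073 lower (8.47%), and the median log2 fold change over all tested genes was -0.11. The sums held 33602 to 255855 UMIs in Pmch nuclei and 6312549 to 33988683 in other neurons. A gene without a UMI in Pmch nuclei could pass the filter on low counts only through other neurons, and could then only be lower. Of the tested genes, 166 had no UMI in 1 of the 2 groups, among them 5 receptors and 6 lineage factors. The numbers of lower genes are read with this limit.

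The transcription factor list, which covers hypothalamic lineages, held 36 tested genes, of which 4 were higher and 18 lower. Otx1, on chromosome 11 at 21994764–22001651 (RefSeq, GRCm38.p6), had a lowest, median and highest level of 55.3, 68.5 and 140.2 CPM in the 6 Pmch samples, against 0.294, 0.438 and 1.16 CPM in other neurons. Every Pmch sample exceeded every sample of other neurons. The log2 fold change was 7.26 ± 0.30 (SE, derived from the F statistic of the test), with an adjusted p of 1.83e-109 in edgeR's test. Nkx2-1, a factor of the ventral hypothalamus, had 29.8, 72.9 and 113 CPM in Pmch nuclei, against 9.07, 13.3 and 14.4 CPM in other neurons (log2 fold change 2.58). Zic1 (3.46) and Nr2f1 (2.50) were the other 2 higher factors, each in 5 of 6 pairs and without a UMI in OB rapamycin. Among the lower ones were Sim1 (-2.97), Zfhx3 (-2.56) and Foxp2 (-2.54), factors of other hypothalamic lineages. Meis2 and Ebf1 were lower too, with only 2 and 3 UMIs in Pmch nuclei. Their log2 ratios of summed CPM, with exact 95% counting intervals, were -4.54 (-7.59 to -2.69) and -4.47 (-6.74 to -2.92). The list's median was -2.52, or -1.09 with genes that had no UMI in Pmch nuclei set at their bound.

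Of 12 tested neuropeptide precursor genes, 2 were higher and 4 lower. Cartpt lies on chromosome 13 at 99898483–99910179. It had 151, 414 and 836 CPM (lowest, median, highest) in Pmch nuclei, against 7.56, 14.6 and 22.8 CPM in other neurons. Its log2 fold change was 4.75 ± 0.17 (edgeR adjusted p 5.37e-176). The spread among Pmch samples was wide, with both DIO samples below the other 4. Nucb2 had 56.4, 143 and 181 CPM in Pmch nuclei, against 30.8, 36.2 and 37.6 CPM in other neurons (log2 fold change 1.99 ± 0.20, adjusted p 1.73e-22). Bdnf, a neurotrophin gene, had no UMI in Pmch nuclei. Against a floor of 3 counts over the group it was at least 6.02-fold lower than in other neurons. Pomc (-2.84) and Avp (-2.19), which define other peptide neurons, were lower too, in a comparison where other neurons of the OB vehicle sample held up to 952 CPM of Pomc.

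Igf1 is a secreted growth factor gene on chromosome 10 at 87858265–87937047, close to Pmch at 88091072–88092374. It had 226, 297 and 441 CPM in Pmch nuclei, against 6.47, 8.81 and 13.1 CPM in other neurons. The log2 fold change was 5.21 ± 0.18 (edgeR adjusted p 4.15e-183), with no overlap between the groups. Parpbp, a gene of DNA repair that overlaps Pmch (88091398–88146969), was also called (3.32 on the log2 scale, 26 UMIs in Pmch nuclei). Its value is uncertain, because reads of Pmch could be assigned to it.

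The processing list covers the enzymes and vesicle proteins that make peptides from precursors. Of its 18 tested genes, 3 were higher and 5 lower. Pcsk2, the convertase that cuts precursors late in the secretory pathway, had 2193, 2957 and 4345 CPM in Pmch nuclei, against 396, 452 and 556 CPM in other neurons (2.71 ± 0.12, edgeR adjusted p 1.32e-110). Its partner Pcsk1 had 0, 11.9 and 59.5 CPM in Pmch nuclei, against 34.0, 39.8 and 54.2 CPM in other neurons (-1.35 ± 0.37, adjusted p 0.00344), and was lower in 5 of 6 pairs. Scg2, a granin of dense-core vesicles, was lower in 6 of 6 pairs (-1.73 ± 0.30, adjusted p 2.21e-07). The list's median was -0.14, near that of all genes.

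In the transmitter list, 1 of 10 tested genes was higher and 8 were lower. Gad1 was the higher one, with 56.4, 139 and 245 CPM in Pmch nuclei, against 47.2, 56.4 and 67.0 CPM in other neurons (1.55 ± 0.17, edgeR adjusted p 4.91e-17). Its sister enzyme gene Gad2 had 0, 5.12 and 23.5 CPM in Pmch nuclei, against 80.9, 95.2 and 107 CPM in other neurons. Every Gad2 value in Pmch nuclei was below every value in other neurons (-2.99 ± 0.34, adjusted p 1.21e-16). Slc17a6 was 31.3, 46.8 and 89.3 CPM in Pmch nuclei, against 70.5, 82.0 and 86.0 CPM in other neurons (-0.89 ± 0.24, adjusted p 0.00353). That call was lost without the DIO pool (-0.67), with DESeq2 (-0.85) and under a stricter rule of 10 Pmch UMIs and 0.2% (-0.68). Slc32a1 was at least 3.05-fold lower than in other neurons, and Hdc, the histamine-synthesising enzyme, at least 7.02-fold lower. Gad2 was no longer called when only glutamatergic neurons served as the comparison (-0.86).

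Of 43 tested receptor genes, 4 were higher and 22 lower. Tacr3, receptor of neurokinin B, on chromosome 3 at 134829007–134934581, had 169, 244 and 446 CPM in Pmch nuclei, against 7.44, 8.33 and 14.8 CPM in other neurons (4.74 ± 0.19, edgeR adjusted p 3.47e-128). Htr2c, a serotonin receptor gene that restrains feeding, had 1270, 1492 and 2070 CPM in Pmch nuclei, against 425, 457 and 479 CPM in other neurons (1.75 ± 0.12, adjusted p 2.31e-46). Neither gene's groups overlapped. Hrh3, a histamine receptor gene, was higher by 1.58 ± 0.38 (edgeR adjusted p 0.000448), a call lost without the chow pool (1.32) and under the stricter rule (0.99). Igf1r, the receptor of Igf1, was higher by 0.55 ± 0.16 (adjusted p 0.0045).

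Among the lower receptors, Lepr, the leptin receptor, had 2 UMIs in all Pmch samples together and 24.1, 30.1 and 36.4 CPM in other neurons (edgeR adjusted p 3.15e-06). Its log2 ratio of summed CPM was -3.66, with an exact 95% counting interval from -6.71 to -1.81. Hcrtr2, an orexin receptor, had 3 UMIs in Pmch nuclei and a ratio of -4.07 (-6.35 to -2.52, adjusted p 3.07e-13). The muscarinic receptor Chrm3 had 10.1, 44.9 and 62.5 CPM in Pmch nuclei, against 304, 345 and 386 CPM in other neurons (-3.31 ± 0.22, adjusted p 1.21e-47). The opioid receptor Oprm1 (-2.39) and the cannabinoid receptor Cnr1 (-2.15) were lower as well.

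**Figure D2:**
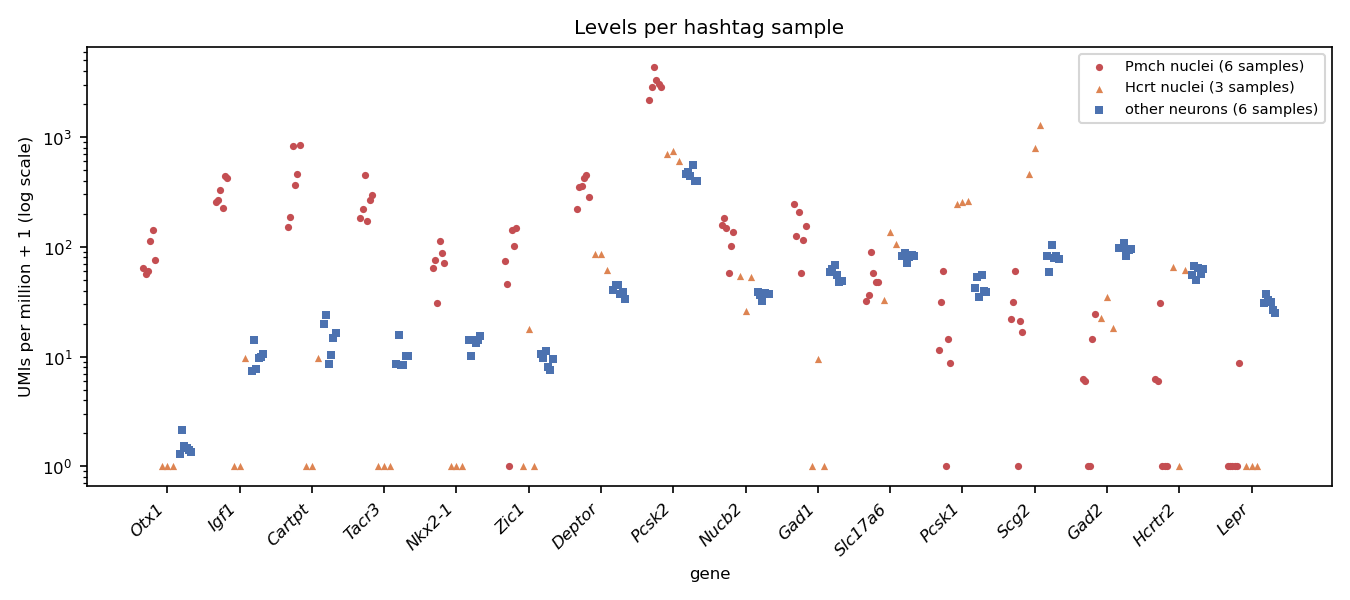
CPM plus 1 (log scale) of 16 genes, 1 point per hashtag sample, in Pmch nuclei (6 samples), Hcrt nuclei (3 samples with enough nuclei) and other neurons (6 samples); points at 1 had no UMI. Otx1, Igf1, Cartpt, Tacr3, Deptor and Pcsk2 are higher in every Pmch sample than in any other sample shown, and Lepr has UMIs in 1 Pmch sample.

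Of 50 tested channel genes, 7 were higher and 23 lower, with a list median of -0.43. The potassium channel Kcnc2, which serves fast repolarisation, had 883, 1076 and 1485 CPM in Pmch nuclei, against 402, 419 and 492 CPM in other neurons (1.36 ± 0.12, edgeR adjusted p 1.43e-27). Kcnn3, a calcium-activated potassium channel, was higher by 0.98 ± 0.17. Kcnj3, a potassium channel opened by G proteins, was lower (-1.92 ± 0.18), as was Kcnmb2 (-3.06), a subunit of large calcium-activated channels. Kcng3, a modifying potassium channel subunit outside that list, was higher by 4.50 ± 0.25.

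In the mTORC1 list 1 of 34 tested genes was higher and 3 were lower, and the median was 0.01. The higher one was Deptor, on chromosome 15 at 55112317–55259273, whose protein binds and inhibits mTOR. It had 219, 352 and 447 CPM in Pmch nuclei, against 32.7, 38.3 and 44.1 CPM in other neurons (3.12 ± 0.15, edgeR adjusted p 2.04e-97). Sesn3 (-0.77) and Rragb (-0.55), which take part in nutrient control of mTORC1, were lower. In the glucose and insulin list 1 of 21 was higher and 1 lower. Pik3r1, a regulatory subunit of PI3-kinase, was higher (1.69 ± 0.19, edgeR adjusted p 1.17e-17), a call lost under the stricter rule (0.93). Irs4, an insulin receptor substrate, had 1 UMI in Pmch nuclei, a log2 ratio of summed CPM of -3.18 (counting interval -8.48 to -0.70).

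Cholesterol and fatty acid synthesis had 2 of 32 tested genes higher, among them Hmgcs1 (1.06 ± 0.25), and 0 lower. Of 29 chaperone genes 4 were higher and 0 lower, among them the stress-response factor Xbp1 (1.02 ± 0.27) and the disulfide isomerase Pdia6 (0.87 ± 0.25). Of 8 immediate-early genes, 0 were higher and 2, both without a UMI in Pmch nuclei, lower. Of 77 ribosomal protein genes and 8 mitochondrial genes, edgeR's test called 0. These shares are read against the 13.6% of all genes called.

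The 15 genes with the largest increases among those with 50 or more UMIs in Pmch nuclei were Otx1, Igf1, Adgrf5, Cartpt, Tacr3, Dab2, Ccbe1, Kcng3, Abtb2, Rspo3, Chodl, Zic1, Mapk4, Fam46a and Cftr. In 13 of them no Pmch sample overlapped other neurons; Zic1 and Cftr overlapped. Over all 12664 tested genes, 267 were higher and 1089 lower without overlap. Ccbe1, a secreted matrix protein gene, had 223, 313 and 655 CPM in Pmch nuclei, against 9.86, 13.7 and 16.2 CPM in other neurons (4.65 ± 0.17). Mapk4, an atypical kinase gene, had 282, 433 and 628 CPM in Pmch nuclei, against 42.3, 49.9 and 54.6 CPM in other neurons (3.37 ± 0.13). Rspo3, an enhancer of Wnt signalling, was higher by 3.76 ± 0.21. The 15 at the low end (Mkx, Nell1os, Adamts3, Adamts2, Hdc, Sntb1, Bdnf, Bcl11b, Lmx1a, Lhx1, Calcrl, Synpo2, Ccnd2, Nrn1 and Nrgn) had no UMI in Pmch nuclei. They passed the filter on low counts through other neurons only. Their bounds ran from at least 4.63-fold lower for Nrn1 to at least 12.4-fold lower for Mkx. Lmx1a and Lhx1 are lineage factors of other hypothalamic neurons.

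**Figure D3:**
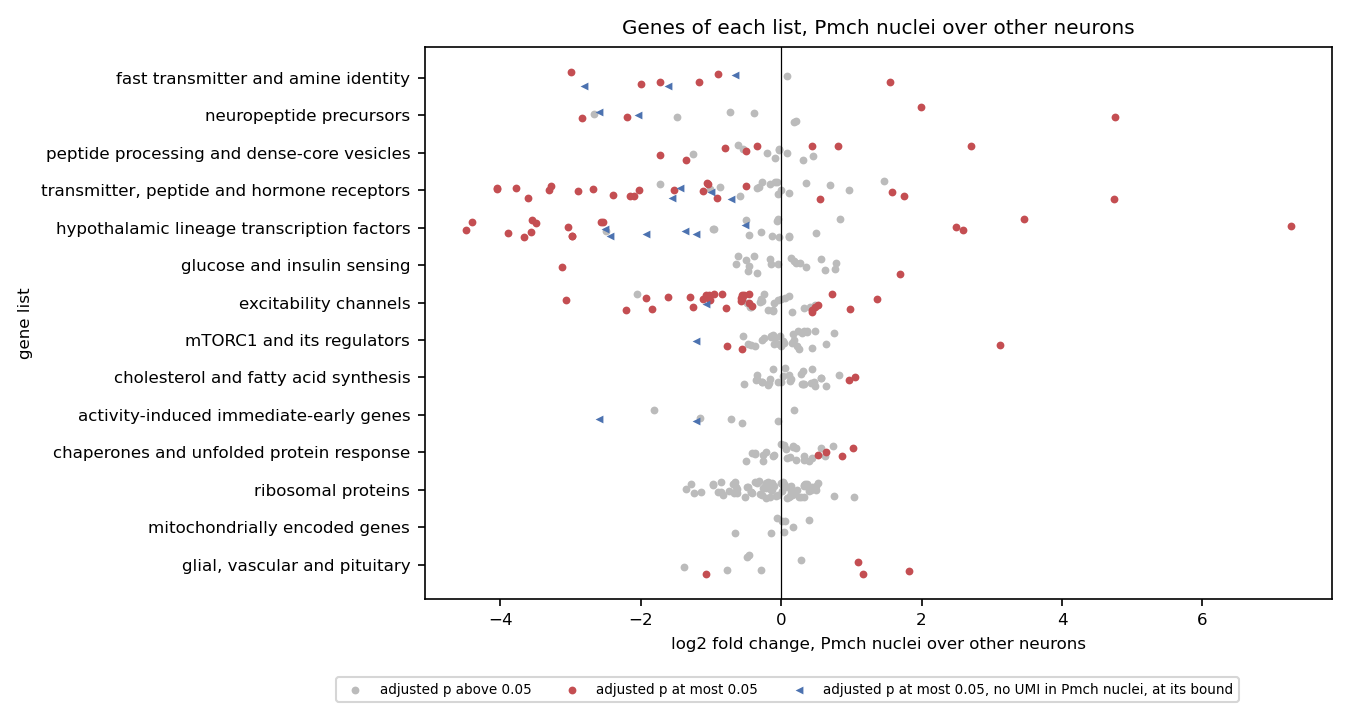
Log2 fold change of every tested gene of 14 lists, Pmch nuclei over other neurons; each point is 1 gene, red where the adjusted p was at most 0.05, blue triangles where a called gene had no UMI in Pmch nuclei and is drawn at its bound. Receptors and lineage factors spread mostly to the left, with Tacr3 and Otx1 far to the right; ribosomal and mitochondrial genes stay grey.

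Marker lists of other cell types were summed in Pmch nuclei and in other neurons. Other neurons had been picked for more neuronal than glial, vascular and pituitary marker UMIs, a filter that members did not pass through. Sums and tests of those markers thus compare 2 groups chosen in different ways. The 5 orexin-neuron markers summed to 0–15.1 CPM over the Pmch samples (30.2–73.2 in other neurons), and Hcrt itself had 5 UMIs over the 116 members. Hcrt is 1 of these 5 markers. The rule limited it in members, and Hcrt nuclei were not taken out of other neurons. The orexin sum is therefore a description and no check of the label. The 5 GABAergic markers summed to 0–31.3 CPM in Pmch nuclei, against 146–189 in other neurons. Astrocyte markers had UMIs in 2 of 5 genes (0–15.6 CPM in Pmch nuclei, against 6.24–41.3 in other neurons) and microglial markers in 5 of 5 (56.4–109.7 CPM in Pmch nuclei, against 129–196 in other neurons). The orexin, GABAergic and microglial sums lay below those of other neurons, and the astrocyte sums overlapped them. The 4 Agrp-neuron markers (40.1–149 CPM in Pmch nuclei, against 69.5–116 in other neurons) and the 3 histaminergic markers (20.1–119 CPM in Pmch nuclei, against 72.8–112 in other neurons) overlapped too. In Pmch nuclei 56 of the 57 UMIs of the Agrp-neuron list were of Agrp, and Hdc, which defines histaminergic neurons, had 0. Precursor-cell markers were higher in every Pmch sample, at 25.1–89.9 CPM against 13.7–19.5 CPM in other neurons, with UMIs of 1 of 3 genes, Vcan. The part of these markers in the results was not tested. The 5 oligodendrocyte markers summed to 25.1–559 CPM in Pmch nuclei, against 74.5–117 in other neurons, with the top value in DIO rapamycin. That value came from 1 member of 5873 UMIs with 10 Pmch UMIs, 0 UMIs of the 6 neuronal markers and 58 Mbp, 16 St18 and 14 Mobp UMIs. These genes belong to myelin-forming cells. Without this nucleus, and without a DIO doublet of 24820 UMIs that entered no sum, the range was 10.8–113 CPM. Of 10 tested genes of the glial, vascular and pituitary list, 3 were higher in Pmch nuclei and 1 lower. Mbp (1.09) was among the higher ones but was -1.61 without these 2 nuclei. Vcan, a matrix gene also used as a precursor-cell marker, was higher with them (1.82) and without them (1.83), a call lost without the chow pool (1.16). P2ry12, a microglial receptor gene, was lower (-1.07).

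Orexin neurons lie among melanin-concentrating hormone neurons in the lateral hypothalamus, so they are the closest comparison. The mirrored rule gave 71 Hcrt nuclei, 29 in DIO, 24 in OB and 18 in chow. Only DIO rapamycin, DIO vehicle and chow rapamycin had 10 or more nuclei of both kinds, which left 3 pairs. Pmch nuclei had Igf1, Cartpt, Tacr3, Gad1 and Nxph1 where Hcrt nuclei had next to none. Hcrt nuclei had Rfx4, Pcdh15, Rgs6, Scg2 and Pcsk1 where Pmch nuclei had few UMIs. In edgeR's quasi-likelihood test with Benjamini-Hochberg adjustment, 661 of 2775 genes differed (23.8%), 377 higher in Pmch nuclei (13.6%) and 284 lower (10.2%). DESeq2 called 352.

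Of 12 tested genes of the processing list, 2 were higher in Pmch nuclei, 3 lower and 7 not called, with a list median of -0.36. Among those called, Pcsk2 was higher and Pcsk1 and Scg2 were lower. In DIO rapamycin, DIO vehicle and chow rapamycin, Pcsk2 was 2193, 2845 and 3065 CPM in Pmch nuclei, against 704, 741 and 601 CPM in Hcrt nuclei (2.14 ± 0.16, edgeR adjusted p 1.58e-14). Pcsk1 was 10.4, 30.2 and 13.4 CPM in Pmch nuclei, against 245, 253 and 261 CPM in Hcrt nuclei (-3.56 ± 0.37, adjusted p 2.68e-10). Scg2 was 20.9, 30.2 and 20.0 CPM in Pmch nuclei, against 459, 791 and 1288 CPM in Hcrt nuclei (-4.86 ± 0.30, adjusted p 6.86e-17). The convertase genes differed in the same direction here as against all other neurons. Both comparisons use the same Pmch nuclei.

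In the same 3 samples Igf1 was 256, 266 and 441 CPM in Pmch nuclei, against 0, 0 and 8.71 CPM in Hcrt nuclei (edgeR adjusted p 1.05e-12). Cartpt was 151, 186 and 461 CPM in Pmch nuclei, against 0, 0 and 8.71 CPM in Hcrt nuclei (adjusted p 1.11e-11). Gad1 was 245, 126 and 114 CPM in Pmch nuclei, against 0, 8.42 and 0 CPM in Hcrt nuclei (adjusted p 4e-09). In each of these genes the Hcrt samples held 1 UMI in all. The log2 ratios of summed CPM, with exact 95% counting intervals, were 6.67 for Igf1 (4.17 to 11.98), 6.35 for Cartpt (3.85 to 11.7) and 5.75 for Gad1 (3.24 to 11.1). Tacr3 had no UMI in Hcrt nuclei and was at least 24.0-fold higher in Pmch nuclei, against a floor of 3 counts over the group.

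Deptor separated the 2 kinds less, with 219, 347 and 447 CPM in Pmch nuclei and 85.3, 84.2 and 60.9 CPM in Hcrt nuclei (2.29 ± 0.30, adjusted p 5.99e-08). Nucb2 (1.90), Pik3r1 (2.58) and Htr2c (0.94) were higher in Pmch nuclei. The synaptic genes Nxph1 (6.32) and Kirrel3 (4.75) were higher too. Of 30 tested channel genes, 10 were higher and 5 lower, among them Kcnn3 (1.73) higher and Trpc7 (-2.17) lower. Kcnh5 and Trpc4, also higher, had 2 UMIs each in Hcrt nuclei, with log2 ratios of summed CPM of 4.67 (2.77 to 7.74) and 4.45 (2.54 to 7.52). Of 10 receptor genes, 4 were higher and 1 lower.

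Of 9 tested lineage factors, 1 was higher and 7 lower. Rfx4 was 0, 5.03 and 0 CPM in Pmch nuclei, against 682, 724 and 792 CPM in Hcrt nuclei (edgeR adjusted p 5.45e-18). With 1 UMI in Pmch nuclei, its log2 ratio of summed CPM was -8.64 (-13.9 to -6.14). Lhx9, a factor known to specify orexin neurons, had no UMI in Pmch nuclei and was at least 23.6-fold lower. Pcdh15, an adhesion protein gene, was 94.0, 60.3 and 40.1 CPM in Pmch nuclei, against 5108, 5193 and 4153 CPM in Hcrt nuclei (-6.04 ± 0.20, adjusted p 1.27e-25). Rgs6, a regulator of G-protein signalling, was 26.1, 25.1 and 6.68 CPM in Pmch nuclei, against 2186, 2424 and 1367 CPM in Hcrt nuclei (-6.45 ± 0.27). Both genes were lower in Pmch nuclei in each of the 3 pairs.

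The members also differed among themselves. Of 116, 50 had UMIs of both Cartpt and Tacr3, 8 of Cartpt alone, 15 of Tacr3 alone and 43 of neither. The 4 classes held 20, 2, 8 and 22 nuclei in DIO, 7, 4, 1 and 6 in OB, and 23, 2, 6 and 15 in chow. After thinning to 1500 UMIs they held 12, 18, 15 and 70 of 115, so how often the genes appear together depends on depth. Splitting by Cartpt gave 58 Cartpt-positive nuclei (median 9112.5 UMIs) and 58 Cartpt-negative nuclei (7264.5 UMIs). Both numbers include doublets and negatives, which the sums compared below leave out. The median Pmch share was 0.154% in Cartpt-positive and 0.187% in Cartpt-negative nuclei.

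Cartpt-positive Pmch nuclei had more Alk, Kctd8, Tacr3 and Pcsk2, and Cartpt-negative ones had more Erbb4, Edil3, Nwd2 and Cdh13. Over 6 pairs of summed counts, 99 of 1064 genes differed (9.3%) in edgeR's quasi-likelihood test with Benjamini-Hochberg adjustment. Of these, 52 were higher in Cartpt-positive nuclei (4.89%) and 47 lower (4.42%). Cartpt was left out, since it made the split. The count was 142 of 1588 tested genes without the OB pool and 30 of 632 without the DIO pool. It was 22 of 492 without the chow pool and 6 of 198 under the stricter rule. The number of tested genes thus changed along with the number called.

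Alk, a receptor tyrosine kinase gene on chromosome 17 at 71868988–72604702, had 1706, 2248 and 3377 CPM (lowest, median, highest) in Cartpt-positive nuclei, against 119, 323 and 639 CPM in Cartpt-negative nuclei (2.65 ± 0.20, edgeR adjusted p 5.3e-09). Kctd8, an auxiliary subunit gene of GABA-B receptors, had 555, 1019 and 1248 CPM in Cartpt-positive nuclei, against 133, 216 and 261 CPM in Cartpt-negative nuclei (2.30 ± 0.21, adjusted p 1.84e-07). Tacr3 had 307, 383 and 595 CPM in Cartpt-positive nuclei, against 0, 81.3 and 126 CPM in Cartpt-negative nuclei (2.05 ± 0.28, adjusted p 3.12e-05). The positive and negative samples did not overlap in any of these genes, and each was higher in 6 of 6 pairs.

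Pcsk2 was part of the same difference, at 3178, 3891 and 5236 CPM in Cartpt-positive nuclei, against 1668, 1808 and 2001 CPM in Cartpt-negative nuclei (1.13 ± 0.16, adjusted p 3.12e-05). Even the Cartpt-negative nuclei were above every sample of other neurons in Pcsk2. The potassium channel gene Kcnc2 (0.83) and the calcium channel subunit gene Cacna2d1 (0.67) were higher and the calcium channel gene Cacna1e (-0.65) lower, among 3 higher and 1 lower of 21 tested channel genes. Kcnq5 (1.91), Unc5d (1.87), Thsd7a (1.20), Mapk4 (1.34) and Ccbe1 (1.40) lost their call without the chow pool, at 1.60, 1.45, 1.07, 1.39 and 1.56 there. Without the DIO pool Parm1 (1.59), Mapk4 and Ccbe1 lost it, at 1.39, 1.28 and 1.03.

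On the other side, Erbb4, the neuregulin receptor gene on chromosome 1 at 68031884–69108576, had 9.11, 74.2 and 260 CPM in Cartpt-positive nuclei, against 679, 1234 and 1368 CPM in Cartpt-negative nuclei (-3.14 ± 0.37, edgeR adjusted p 4.76e-06). Edil3, a secreted adhesion protein gene, had 0, 20.0 and 48.8 CPM in Cartpt-positive nuclei, against 216, 298 and 477 CPM in Cartpt-negative nuclei (-3.27 ± 0.38, adjusted p 3.82e-06). Nwd2 had 0, 31.0 and 100.2 CPM in Cartpt-positive nuclei, against 336, 386 and 538 CPM in Cartpt-negative nuclei (-3.00 ± 0.31, adjusted p 7.82e-07). These genes and Brinp3 (-1.49) were the 4 of the 15 lowest genes without overlap between samples. Of the 15 highest, 8 had none. Over all 1064 tested genes, 15 were lower and 19 higher without overlap. Cdh13, a cadherin gene, was lower in 6 of 6 pairs (-2.57 ± 0.33) with ranges that touched, at 21.7–198 CPM in Cartpt-positive and 183–731 CPM in Cartpt-negative nuclei. Mef2c (-1.68) and the glutamate receptor Grik1 (-1.52) were lower too.

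Several genes that marked Pmch nuclei as a whole gave no call in this split. Igf1 had 261, 402 and 491 CPM in Cartpt-positive nuclei, against 0, 244 and 365 CPM in Cartpt-negative nuclei (0.61 ± 0.26, edgeR adjusted p 0.183). Deptor had 255, 376 and 458 CPM in Cartpt-positive nuclei, against 206, 350 and 432 CPM in Cartpt-negative nuclei (0.01 ± 0.23, adjusted p 0.99). Htr2c was -0.39 ± 0.16 (adjusted p 0.154). Splitting the same nuclei by Tacr3 instead tested 96 of the 99 genes, all with the same sign. It called 81 of 1186 tested genes, of which 66 were shared (66.7% of the Cartpt list, 81.5% of the Tacr3 list). The 2 splits use the same nuclei and are not independent.

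**Figure D4:**
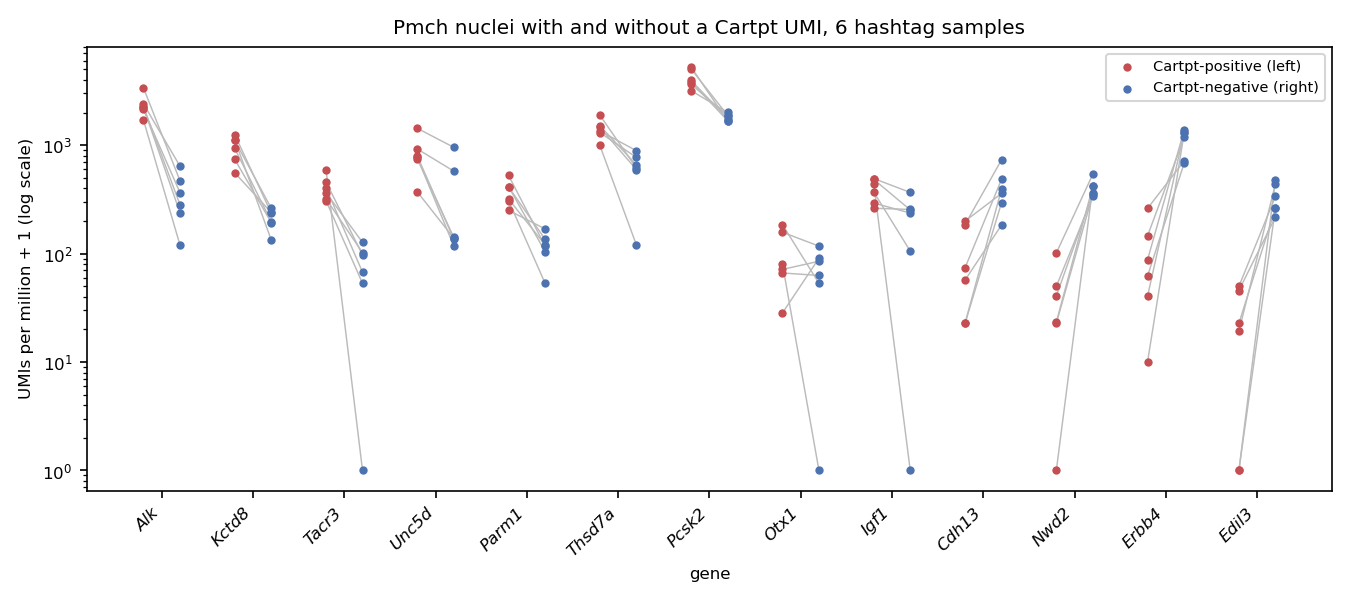
CPM plus 1 (log scale) of 13 genes in Pmch nuclei with (left) and without (right) a Cartpt UMI; a grey line joins the 2 sums of a hashtag sample, 6 lines a gene. Alk, Kctd8, Tacr3, Parm1, Thsd7a and Pcsk2 fall to the right in every sample, Nwd2, Erbb4 and Edil3 climb in every sample, and Otx1 goes both ways.

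The share of Pmch nuclei among neurons was lower under rapamycin than under vehicle in each pool, but no difference exceeded its counting error. In DIO they were 23 of 5745 neurons under rapamycin (0.400%) and 24 of 4322 under vehicle (0.555%), a log2 ratio of -0.47 with an exact 95% interval from -1.36 to 0.42. In OB they were 8 of 4645 under rapamycin (0.172%) and 8 of 1587 under vehicle (0.504%), at -1.55 (-3.16 to 0.06). In chow they were 15 of 4678 under rapamycin (0.321%) and 24 of 4972 under vehicle (0.483%), at -0.59 (-1.63 to 0.40). Each pool has 1 hashtag per treatment, so there is no replicate check and no p-value. Intervals here cover counting error only.

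The rule ties membership to depth, so the shares were also counted after thinning to 1500 UMIs with 2 or more Pmch UMIs. The log2 ratios were then -0.35 in DIO, -1.53 in OB (-2.95 to -0.11) and 0.09 in chow, where 18 nuclei were counted under each treatment. With 5 Pmch UMIs and no percentage, an alternative chosen after seeing the data, they were -0.93 (-1.68 to -0.19), -1.87 (-3.42 to -0.38) and -0.70 (-1.62 to 0.19). In OB the ratio was -0.52 (-2.18 to 1.08) when nuclei were assigned by the ratio of their tags. HTODemux, the caller behind the other OB ratios, left 3721 of 12283 kept OB nuclei negative, against 406 of 11405 in DIO and 191 of 10853 in chow. By tag ratio, other neurons of OB vehicle numbered 3996 instead of 1579, and those of OB rapamycin 4452 instead of 4637. The part of the hashtag calls in the OB share was not tested further. Other neurons had a median of 5389 UMIs under rapamycin and 6134.5 under vehicle in DIO, 3253 under rapamycin and 3701 under vehicle in OB, and 5932 under rapamycin and 5864 under vehicle in chow. The part of depth in these shares was not tested beyond the thinning.

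Pmch itself, given as a description, was 2026 CPM under rapamycin and 1629 under vehicle in the Pmch nuclei of DIO, 2946 under rapamycin and 2314 under vehicle in OB, and 2063 under rapamycin and 1845 under vehicle in chow. Over all neurons together Pmch was 20.8 CPM under rapamycin and 21.4 under vehicle in DIO, 21.3 under rapamycin and 25.8 under vehicle in OB, and 18.0 under rapamycin and 22.3 under vehicle in chow. Within the set the rapamycin value was the higher one in each pool, and over all neurons the lower one.

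Across the 3 pools no gene was called between rapamycin and vehicle in Pmch nuclei. The test rested on 3 pairs of sums of 8 to 24 nuclei each, so it could miss sizeable changes. Of 3345 tested genes, edgeR's quasi-likelihood test with Benjamini-Hochberg adjustment called 0 (0%), with 128 at an unadjusted p under 0.05. DESeq2 called 0, with 9 at an unadjusted p under 0.05. Cartpt was -0.29 ± 0.25 (SE), Tacr3 0.03 ± 0.26, Gad1 0.49 ± 0.32, Pcsk2 0.03 ± 0.16 and Deptor 0.03 ± 0.25 on the log2 scale, all with an adjusted p of 0.997. None of the 13 tested genes of the mTORC1 list, on whose complex rapamycin acts, was called (list median 0.07, all genes 0.01). Rptor, the mTORC1 scaffold gene, was -0.62 ± 0.31 (unadjusted p 0.0581).

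Some genes of the Cartpt split had unadjusted p-values under 0.05 in edgeR's test, as did 128 of all 3345 tested genes. They were picked after their values were seen, and how many of the split's genes did so is not given here. Alk was -0.54 ± 0.18 (unadjusted p 0.00568), Kctd8 -0.56 ± 0.22 (0.0184), Kcnq5 -0.58 ± 0.22 (0.0146) and Erbb4 0.64 ± 0.21 (0.00396), each with an adjusted p of 0.997 in edgeR's test. Under the stricter rule 7 of 815 tested genes were called. Alk (-1.02), Kctd8 (-1.26), Kcnq5 (-1.41) and the phosphatase gene Inpp4b (-1.67) were lower, and Cntn3 (1.40), Gabrg1 (1.74) and Malat1 (0.42) higher. The sums under that rule were small. For rapamycin and vehicle they held 9 and 7 nuclei in DIO, 3 and 2 in OB, and 7 and 10 in chow. The Cartpt-positive nuclei numbered 7 of 23 under rapamycin and 11 of 24 under vehicle in DIO, 5 of 8 under rapamycin and 4 of 8 under vehicle in OB, and 7 of 15 under rapamycin and 15 of 24 under vehicle in chow. Whether this makeup of the sums bears on those genes was not tested.

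Within the DIO pool, 35 of 1342 genes with at least 50 UMIs passed an absolute log2 ratio of 1 (2.61%), 16 higher (1.19%) and 19 lower (1.42%) under rapamycin. Alk was 789 CPM under rapamycin and 1614 under vehicle (-1.03, exact 95% counting interval -1.32 to -0.75). Kctd8 was 324 CPM under rapamycin and 794 CPM under vehicle (-1.29), and Unc5d 193 CPM under rapamycin and 498 CPM under vehicle (-1.36). Erbb4, which was lower in Cartpt-positive nuclei, was 1060.1 CPM under rapamycin and 583 CPM under vehicle (0.86). Inpp4b (-1.43), Unc5d and the trafficking gene Rab2a (-1.35) were the 3 lowest. The 3 highest, Mbp (4.94), Qk (2.61) and Cdh20 (1.55), moved with the non-neuronal member described above. Without that nucleus Mbp had 1 UMI under rapamycin and 2 under vehicle, Qk was 1.10 and Cdh20 0.10, while Alk was still -0.99 and Kctd8 -1.25.

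Within the OB pool, 5 of 148 genes passed that ratio (3.38%), 3 higher (2.03%) and 2 lower (1.35%). Arl15 (1.70), Galntl6 (1.35) and Csmd1 (1.08) were highest, and Nrxn3 (-1.29), Mdga2 (-1.18) and Celf2 (-0.94) lowest. In chow, 21 of 1359 did (1.55%), 8 higher (0.589%) and 13 lower (0.957%). P2ry14 (1.66), the Erbb4 ligand gene Nrg1 (1.48) and the semaphorin receptor gene Plxna2 (1.17) were highest. The Wnt effector gene Lef1 (-1.62), Sphkap (-1.43) and Ddx24 (-1.33) were lowest there. No gene stood among the 3 highest or 3 lowest of more than 1 pool. Lists this short, from 1342, 148 and 1359 genes in DIO, OB and chow, cannot show whether the pools agree. Alk in OB (-0.46, interval -1.05 to 0.11) and chow (-0.19, -0.43 to 0.05) lay within counting error.

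**Figure D5:**
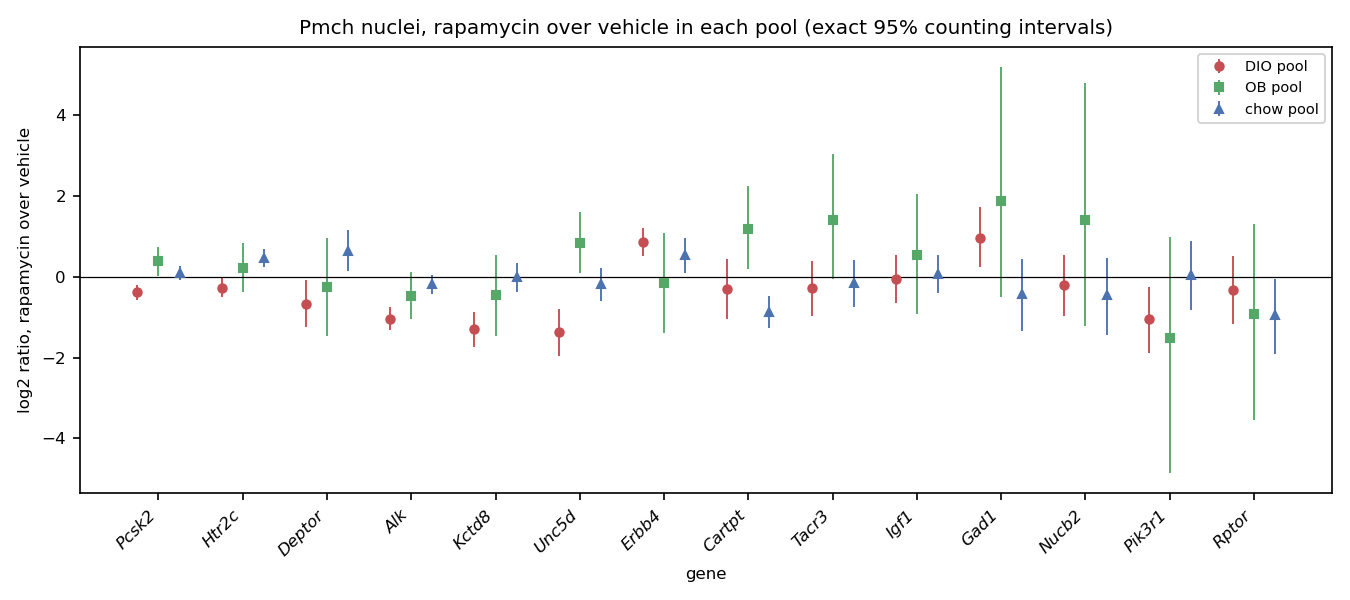
Log2 ratio of rapamycin to vehicle CPM in Pmch nuclei for 14 genes, 1 point a pool, with exact 95% intervals for counting error. Alk, Kctd8 and Unc5d lie below 0 in the DIO pool with intervals clear of 0, and the OB intervals are the widest.

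The rapamycin effect in Pmch nuclei was compared with that in other neurons by an interaction term over the 12 sums. Of 13531 tested genes, edgeR's quasi-likelihood test with Benjamini-Hochberg adjustment called 1 (0.00739%), Mbp, at 3.42 ± 0.57 (adjusted p 2.76e-05). Its level in Pmch nuclei was 308 CPM under rapamycin and 10.1 under vehicle in DIO, 29.8 under rapamycin and 84.7 under vehicle in OB, and 6.68 under rapamycin and 3.91 under vehicle in chow. Rapamycin was the higher side in DIO and chow and the lower one in OB, and in DIO 58 of the 59 Mbp UMIs came from the 1 non-neuronal member. Without the 2 odd nuclei 0 genes were called and Mbp was -0.64.

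Among vehicle samples, Pmch nuclei of the obese groups were set beside those of chow mice, as values with no test. Cartpt had the largest of the ratios given here. It was 186 CPM in DIO and 836 CPM in chow (log2 ratio -2.17, exact 95% counting interval -2.71 to -1.66). In OB it was 367 CPM, against 836 CPM in chow (-1.19, -2.12 to -0.38). A single OB nucleus held 7 of the 13 Cartpt UMIs there (53.8%), and without it the OB level was 198 CPM. A single chow nucleus held 57 of 214 (26.6%), and without it the chow level was 633 CPM. The share of nuclei with a Cartpt UMI was 11 of 24 in DIO and 4 of 8 in OB, against 15 of 24 in chow.

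Zic1 was 45.2 CPM in DIO and 149 CPM in chow (-1.71, -2.95 to -0.64), and Igf1 266 CPM in DIO and 418 CPM in chow (-0.65, -1.15 to -0.16). Ccbe1 was higher in DIO, at 468 CPM and 223 CPM in chow (1.07, 0.58 to 1.57). Mapk4 was 282 CPM in OB and 571 CPM in chow (-1.02, -2.11 to -0.10). Pcsk2 was 2845 CPM in DIO and 3330 CPM in OB, against 2849 CPM in chow, within counting error in both. In all, 44 of 1609 genes passed an absolute log2 ratio of 1 in DIO over chow (2.73%), 32 higher (1.99%) and 12 lower (0.746%). In OB over chow 86 of 896 did (9.6%), 25 higher (2.79%) and 61 lower (6.81%).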

How the data were processed

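The authors deposited gene and hashtag UMI counts per barcode for each pool. They were made with Cell Ranger 6.0.0 on mm10, per the submitters' processing notes; the file headers name 6.0.0 (DIO, chow) and 7.0.1 (OB). Whether introns and strand were counted is not given in the sources used here. Barcodes with at least 500 UMIs, 300 genes and at most 5% mitochondrial UMIs were kept, which removed 1 OB barcode. Hashtags were called with HTODemux (Seurat 5.3.0, quantile 0.99). Its doublets and negatives were left out of the sums per hashtag sample, and no other doublet caller was run. Neurons had more UMIs over 6 neuronal than over the glial, vascular and pituitary markers. Counts were summed per hashtag sample and class over 27514 shared genes and fitted with edgeR 4.0.16 (TMM, filterByExpr, hashtag sample or pool as block; R 4.3.3). Hashtags of a pool share a library, which is the basis of the block. The SE of an edgeR fold change is its absolute log2 value divided by the square root of the F statistic. Within pools, ratios of counts have exact 95% intervals (scipy 1.17.1), which cover counting error only. Levels at 0 were bounded with a floor of 3 counts.

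Named genes are the 15 highest and 15 lowest called genes with at least 50 UMIs, without numbered gene models, the 3 highest and lowest within a pool, and members of the gene lists. Genes cited beyond these were chosen after their values were seen. Members and lists were chosen with earlier results of these data known. Alternatives were DESeq2 1.42.0, other size factors, no filter, no block, other rules and hashtag calls, and leaving out each pool. The scripts were tested on simulated data.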

Additional observations from a re-analysis of the deposited data

Results flagged for a closer look

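Cartpt moved in opposite directions under rapamycin in OB (log2 ratio 1.18) and in chow (-0.86), and this difference was not tested. The same holds for 4 more genes, each with counting intervals clear of 0 on both sides. Deptor was 0.65 in chow and -0.66 in DIO. Htr2c was 0.47 in chow and -0.27 in DIO. Pcsk2 was 0.38 in OB and -0.38 in DIO, and Unc5d 0.84 in OB and -1.36 in DIO. Each value compares 1 hashtag sample with 1 other. In chow, 1 vehicle nucleus held 57 of 214 Cartpt UMIs and 1 rapamycin nucleus held 32 of 69; in OB, 1 vehicle nucleus held 7 of 13. Mbp had a rapamycin effect 3.42 higher (log2) in Pmch nuclei than in other neurons by the interaction term; it was -0.64 without the 2 odd nuclei.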

How the results depend on the processing

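Among genes called in Pmch nuclei against other neurons, 1724 in all, DESeq2 called 985 and the stricter rule 811; leaving out a pool gave 856 to 1781. Mbp reversed with DESeq2 (-0.56), under the stricter rule (-3.47), without odd nuclei (-1.61) and without the DIO pool (-1.37; 1.75 without chow). Against Hcrt nuclei DESeq2 called 352; leaving out chow gave 615, and without DIO no residual degrees of freedom remained. The Cartpt split gave 6 of 198 tested genes under the stricter rule. When a pool was left out it gave from 22 of 492 to 142 of 1588, against 99 of 1064. Rapamycin across pools gave 2 of 15315 tested genes without a filter and 7 of 815 under the stricter rule, and 0 to 1 genes when a pool was left out. There Tacr3 reversed without a filter (-0.0063), under the stricter rule (-0.49) and without OB (-0.18; 0.24 without DIO), and Cartpt without chow (0.33; -0.65 without OB). The interaction gave 0 with DESeq2, 3 with RLE factors, 0 without odd nuclei and 0 with no replicate block, against 1; without a pool it gave 0 to 2, and Mbp reversed without DIO (-0.49; 4.55 without OB) and without odd nuclei (-0.64). The pairing by hashtag sample changed no other count by over 1.5 times. Genes past the rapamycin ratio in DIO were 21 of 265 (7.92%) under the stricter rule and 9 of 530 (1.70%) with at least 100 UMIs, against 2.61%. In OB they were 8 of 144 by tag ratio, 9 of 187 with 5 Pmch UMIs and no percentage, and 2 of 59 with 100 UMIs; in chow 11 of 349 (3.15%) under the stricter rule and 2 of 531 with 100 UMIs, against 1.55%. Among vehicle samples the stricter rule gave 13 of 292 (DIO, 4.45%, against 2.73%) and 50 of 212 (OB, 23.6%, against 9.6%), and 100 UMIs 5 of 631 and 15 of 339. The vehicle alternatives, odd nuclei and the rule without a percentage were chosen after seeing the data. The cause of these changes was not tested. The small OB sums limit every OB value.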
